A study of Homo sapiens with 12 samples.

Results

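The genes described here encode the proteins of the cytosolic ribosome. They were chosen by symbol alone, as RPL or RPS followed by a number and at most a short suffix, together with RPSA, RPLP0, RPLP1 and RPLP2, and without pseudogenes and the RPS6K kinases. The rule finds 86 of the 43236 gene symbols in the files, 52 of the large subunit and 34 of the small. Of these, 82 were tested, since the tissue-restricted copies RPL3L and RPL10L and the Y-linked copies RPS4Y1 and RPS4Y2 did not pass the filter on low counts. The 12 libraries come from HOS-MNNG, an established human osteosarcoma cell line (named MNNG/HOS in the study). Cells received the vehicle DMSO or the compound NXP800 at 300 nM, and polyA RNA was extracted after 6 h or 24 h, with 3 libraries in each of the 4 groups. The study asked which stress pathways NXP800 engages, among them the eIF2α kinase GCN2. Nothing in the labels says whether the libraries of a group came from separate cultures, so the p-values measure the spread between these libraries, which may be technical.

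A ribosome reads mRNA with its small subunit and joins amino acids with its large subunit, and nearly every protein of either subunit is present once per ribosome. The mRNAs of ribosomal proteins are long lived and begin with a 5′ terminal oligopyrimidine (TOP) tract, a cytosine at the cap followed by a run of C and T, through which LARP1 and mTORC1 control how strongly they are translated. That control acts mainly on translation, which a count of mRNA does not measure. Ribosomal proteins are also sensors: the P stalk (RPLP0, RPLP1 and RPLP2) activates GCN2 when ribosomes stall, free RPL5 and RPL11 bind MDM2 and stabilise p53, and colliding ribosomes are marked by ubiquitin on small-subunit proteins.

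The start sites are printed because the TOP tract is the feature these mRNAs are known for, and 12 of the genes described further on are shown, namely the 5 called at both times, RPL22L1, RPS12, RPL12, RPS18 and the P stalk. Each line gives 10 bases before and 20 bases from the annotated start, 5′ to 3′ on the coding strand, from the RefSeq promoter table (GRCh38.p14). Capitals mark a pyrimidine run that opens with C at the annotated start.
RPS26 (chr12:56041908-56041937, plus strand): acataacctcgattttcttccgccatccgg
RPL38 (chr17:74203668-74203697, plus strand): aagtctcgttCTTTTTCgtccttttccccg
RPS15 (chr19:1438386-1438415, plus strand): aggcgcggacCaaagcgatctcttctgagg
RPL41 (chr12:56116623-56116652, plus strand): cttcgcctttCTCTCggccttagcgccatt
RPL10A (chr6:35468391-35468420, plus strand): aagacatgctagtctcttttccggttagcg
RPL22L1 (chr3:170870176-170870205, minus strand): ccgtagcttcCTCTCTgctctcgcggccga
RPS12 (chr6:132814559-132814588, plus strand): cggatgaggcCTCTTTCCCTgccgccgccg
RPL12 (chr9:127451387-127451416, minus strand): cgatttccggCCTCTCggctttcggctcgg
RPS18 (chr6:33272065-33272094, plus strand): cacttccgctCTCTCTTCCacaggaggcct
RPLP0 (chr12:120201092-120201121, minus strand): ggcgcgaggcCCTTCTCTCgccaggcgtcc
RPLP1 (chr15:69452808-69452837, plus strand): ggcgcgagagCCCCTTTCCTCagctgccgc
RPLP2 (chr11:809957-809986, plus strand): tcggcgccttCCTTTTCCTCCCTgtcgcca

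The promoter table holds 69 of the 86 genes, and in 44 of them (63.8%) the annotated start is a C followed by pyrimidines in a run of at least 5 bases. The same is true of 4.04% of all 27305 promoters in the table. RPL38, RPL41, RPL22L1, RPL12, RPS12, RPS18 and the 3 P stalk genes have such a run. The annotated starts of RPS26 and RPL10A do not begin with C, and that of RPS15 has a single C followed by purines. An annotated start can lie some bases from the one these cells use, so the absence of a run here says only what is in this window.

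Gene counts were even, 30810614 to 31947656 per library. Reads outside any gene made up 6.66 to 8.14% of the 6 h libraries and 2.73 to 3.67% of the 24 h libraries. The base was gene counts plus all reads assigned to no gene. NXP800 was compared with DMSO within each time point. The line carried RUNX2, COL1A1 and SPARC of the osteoblast lineage and VIM, FN1 and CDH2 of mesenchymal cells, while COL1A2, ALPL and SP7 had at most 12 counts in any library. Of the epithelial, haematopoietic and endothelial markers, EPCAM alone exceeded 1 on the scale of CPM (counts relative to the scaled library total), at 5.59 to 10.2 CPM. The ranges of 3 marker sums are given by treatment, and they overlapped for the epithelial sum at 6 h alone. The osteoblast-lineage sum was 718 to 898 CPM with DMSO and 461 to 565 CPM with NXP800 at 6 h, and 875 to 1054 and 380.3 to 461 CPM at 24 h. The mesenchymal sum was 4579.9 to 4762 and 4294 to 4365 CPM at 6 h, and 5202 to 6222 and 3551 to 4496 CPM at 24 h. The epithelial sum was 5.62 to 6.49 and 6.26 to 7.07 CPM at 6 h, and 5.72 to 5.91 and 10.15 to 10.22 CPM at 24 h. Their part in the results on ribosomal protein genes was not tested.

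The first measure was the share of all gene counts taken by the 86 genes together. It was 7.87, 8.41 and 7.43% in the DMSO libraries at 6 h and 7.71, 7.75 and 7.23% in the NXP800 libraries, ranges that overlap. At 24 h it was 9.35, 9.50 and 9.46% with DMSO and 11.01, 10.2 and 10.8% with NXP800, each NXP800 library above each DMSO library. The mean difference was -0.341 percentage points at 6 h (exact two-sided permutation p = 0.4) and 1.24 percentage points at 24 h (exact p = 0.1, the smallest that 3 against 3 libraries allow). The 6 h difference was -0.0871 without DMSO replicate 2, -0.176 without NXP800 replicate 3 and -0.5795 without DMSO replicate 3. After scaling by the trimmed mean of M-values (TMM), which sets the bulk of genes level between libraries, the 24 h difference was 0.652% of the scaled counts (exact p = 0.4). In a bulk sample, fewer cells of a type and less RNA per cell cannot be told apart.

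**Figure D1:**
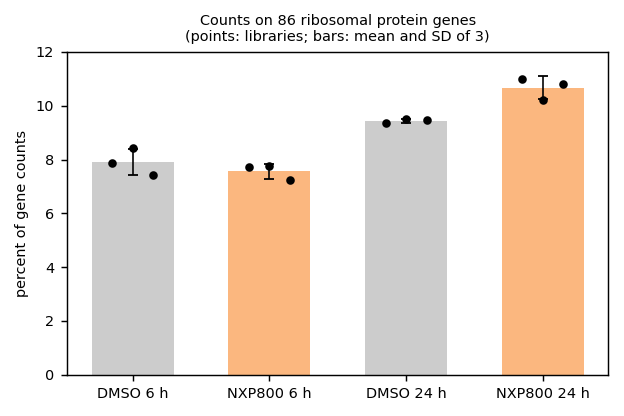
Percent of all gene counts on the 86 ribosomal protein genes in each library (black points), with the mean (bar) and SD of 3 libraries. The 6 h groups overlap, and the 3 NXP800 libraries at 24 h (10.2 to 11.01%) lie above the 3 DMSO libraries (9.35 to 9.50%).

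Each gene was then tested with edgeR's quasi-likelihood test on the counts, with p-values adjusted by Benjamini-Hochberg over all 15979 genes tested, and a gene is called at an adjusted p below 0.05. Values below are log2 fold changes of NXP800 over DMSO, and levels are TMM-scaled CPM, which serve to compare libraries and not genes. The standard error of the log2 fold change had a median of 0.080 over the 82 genes at either time.

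At 6 h the differences were small. Of the 82 genes tested, 16 were called (19.5%, against 52.8% of all genes tested). RPL22L1 and RPL10A rose (2 genes, 2.44%, against 25.0% of all genes tested) and 14 fell (17.1%, against 27.8%). Most of the genes lay slightly below zero, with 70 of 82 negative and a median of -0.10, beside medians of -0.05 over all genes and -0.11 over the 587 other genes of high level (a mean of at least 8 on the log2 CPM scale). The median was -0.05 without DMSO replicate 2 and -0.07 without NXP800 replicate 3 at 6 h or with only the 6 libraries of that time. In 2 genes every NXP800 library lay above every DMSO library (2.44%, against 29.3%), and in 19 every one lay below (23.2%, against 32.7%). The spread between the genes was narrow, with an SD of 0.16 against 0.70 over all genes. Among the 587 other genes of high level, 57.4% were called at 6 h and the SD was 0.50. Past a log2 change of 0.5, a single gene lay on each side, RPL22L1 above (1.22% of the 82, against 17.0% of all genes) and RPS26 below (1.22%, against 18.0%). Without DMSO replicate 1, DMSO replicate 2 or NXP800 replicate 3 at 6 h, the number of falls at 6 h was 6 in each case instead of 14.

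At 24 h most of the genes lay above zero instead. There, 25 genes were called (30.5%, against 56.0% of all genes). Of these, 20 rose (24.4%, against 27.5% of all genes) and 5 fell (6.1%, against 28.6%), 53 of 82 were positive, and the median was 0.06, beside a median near zero over all genes and one of -0.20 over the other genes of high level. The median was 0.03 without NXP800 replicate 1, 0.04 without NXP800 replicate 3 and 0.15 without NXP800 replicate 2. Scaled by library size alone in place of TMM, 37 rose and 4 fell (against 33.3% and 23.4% of all genes), with a median of 0.15. None rose past 0.5 (against 19.4% of all genes), while RPS26 and RPS10 fell past it (2.44%, against 19.7%). In 20 genes every NXP800 library lay above every DMSO library (24.4%, against 29.0%), and in 7 every one lay below (8.54%, against 30.1%). Among the 587 other genes of high level 71.2% were called. The calls were spread over both subunits. Of the 50 large-subunit genes tested, 11 rose and 2 fell at 24 h, and of the 32 small-subunit genes 9 rose and 3 fell, with medians of 0.04 and 0.08. At 6 h the medians of the subunits were -0.10 and -0.11, with 10 large-subunit and 4 small-subunit genes lower. The number of rises at 24 h was 13 without DMSO replicate 1, 12 without NXP800 replicate 1 and 31 without NXP800 replicate 2. The number of falls at 24 h was 9 without NXP800 replicate 1 and 3 without NXP800 replicate 2.

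**Figure D2:**
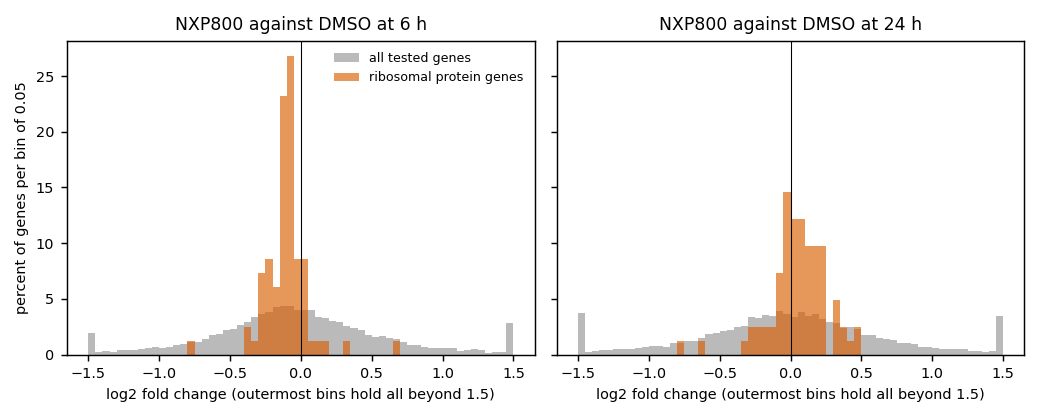
Distribution of log2 fold changes, NXP800 over DMSO, at 6 h (left) and 24 h (right), as the percent of the 82 ribosomal protein genes (orange) and of all 15979 tested genes (grey) in bins of 0.05, with values beyond 1.5 placed in the outermost bins. The ribosomal protein genes form a narrow peak with a median of -0.10 at 6 h and a broader one with a median of 0.06 at 24 h.

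The ribosomal protein genes deviated together from library to library. In the NXP800 group at 24 h, replicate 2 was the lowest of the 3 libraries for 73 of the 82 genes, against 33.5% of all genes. Replicate 1 of that group was the highest for 62 (against 32.3% of all genes). In the DMSO group at 6 h, replicate 2 was the highest for 69 genes (against 36.4% of all genes) and replicate 3 the lowest for 72 (against 41.3%). In the NXP800 group at 6 h replicate 3 was the lowest for 66 (against 36.8%). The DMSO libraries at 24 h were closer to each other. Of the called genes, 7 of 16 at 6 h and 13 of 25 at 24 h were called whichever library was left out. No share over all genes is given for these last counts.

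**Figure D3:**
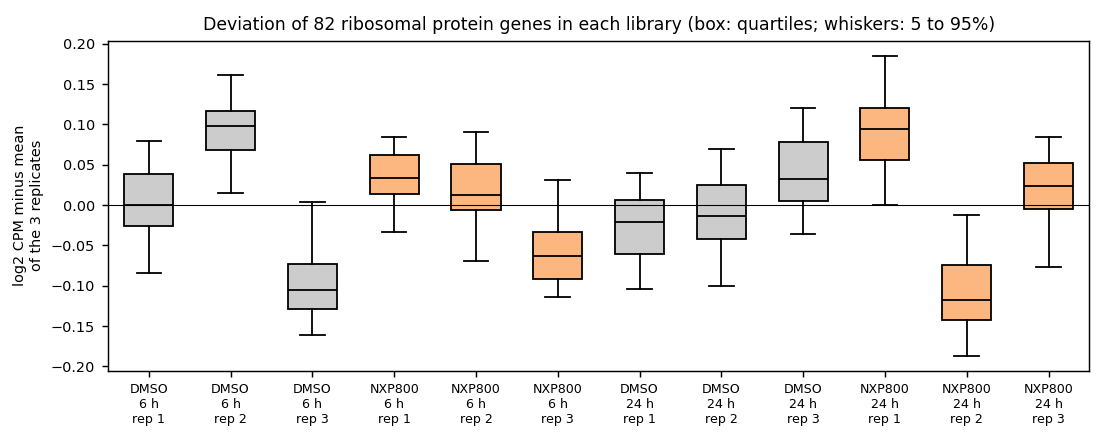
Deviation of the 82 ribosomal protein genes in each library from the mean of its group, in log2 CPM (box: quartiles, line: median, whiskers: 5th to 95th percentile; grey DMSO, orange NXP800). NXP800 replicate 2 at 24 h and DMSO replicate 3 at 6 h lie below their groups (medians -0.12 and -0.11), and DMSO replicate 2 at 6 h lies above (0.10).

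Over all tested genes, libraries with the same replicate number deviated together within a time point, so a fit with the replicate number as a block was made. For the 82 genes, the median deviations of replicate 3 at 6 h were -0.11 with DMSO and -0.06 with NXP800. Those of replicate 1 at 24 h were -0.02 and 0.09, of opposite sign. With the replicate block, 24 genes fell at 6 h (29.3%, against 33.4% of all genes in that fit) and 3 rose (3.66%, against 28.9%), and at 24 h 26 rose (31.7%, against 32.0%) and 8 fell (9.76%, against 33.1%).

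**Figure D4:**
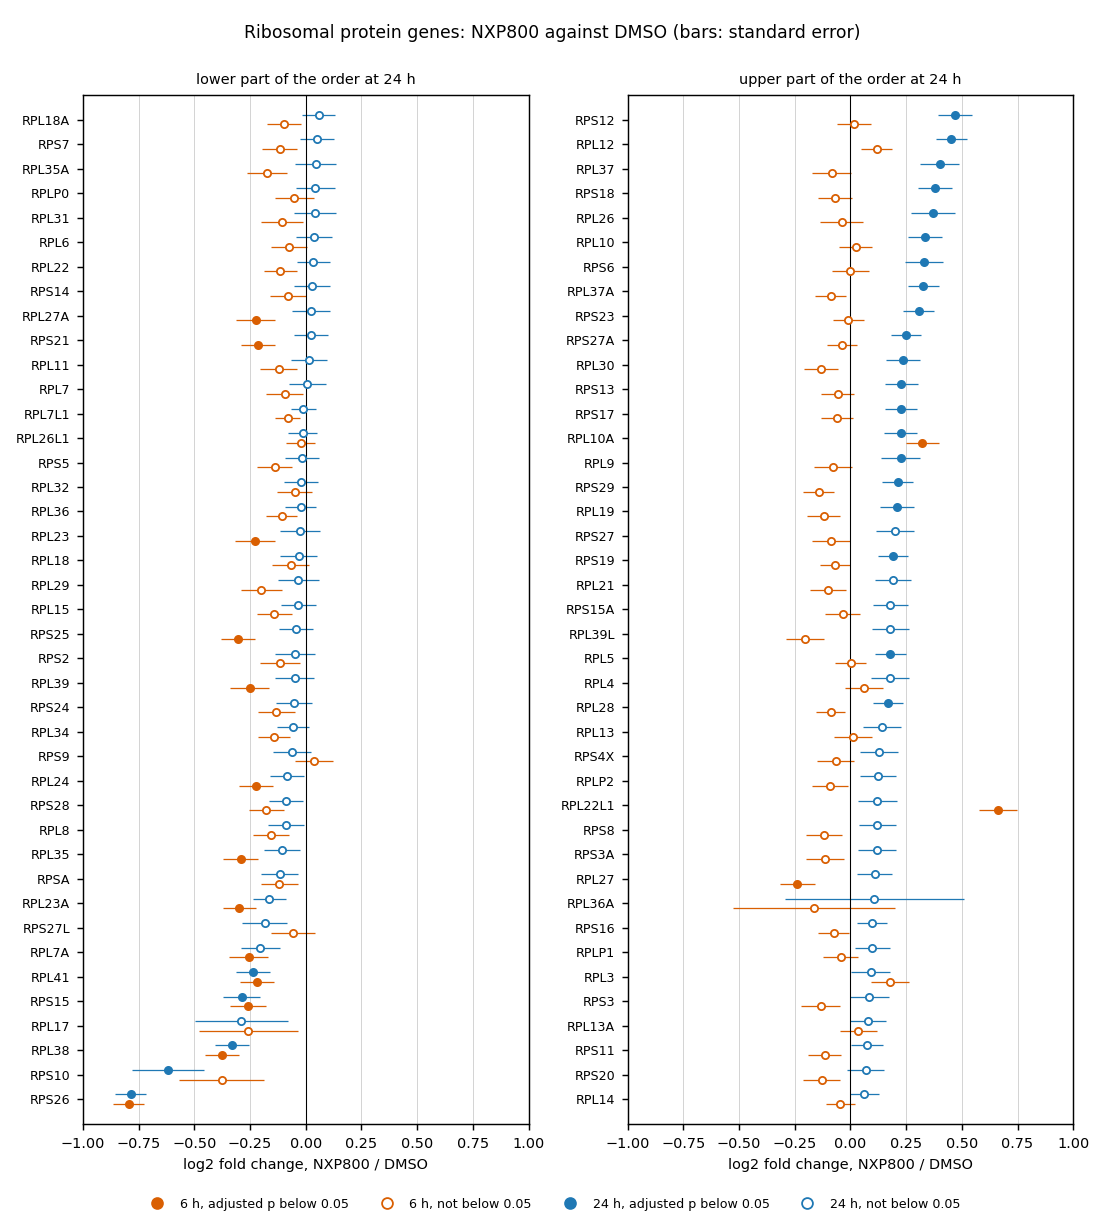
Log2 fold change of NXP800 over DMSO for each of the 82 ribosomal protein genes tested, at 6 h (orange) and 24 h (blue), ordered by the 24 h value, with the standard error as a bar and filled points for an adjusted p below 0.05. RPS26 lies lowest at both times, at -0.79, and RPL22L1 stands out at 6 h (0.66) but not at 24 h (0.12).

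RPS26 had the largest change of the 82 genes at either time. It encodes a small-subunit protein at the mRNA exit channel, where it touches the mRNA upstream of the start codon, and lies at chr12:56041918-56044697. Its level at 6 h was 273, 256 and 231 CPM with DMSO and 147, 143 and 148 CPM with NXP800. At 24 h it was 374, 402 and 391 CPM with DMSO and 243, 218 and 215 CPM with NXP800. Every NXP800 library was below every DMSO library of its time point. RPS26 fell by 0.79 on the log2 scale at both times, to 0.577 and 0.580 of the DMSO level (SE 0.069 and 0.069, adjusted p = 1.25e-07 and 9.45e-08, edgeR). The difference between the times was 0.01 (SE 0.097), and both calls held whichever library was left out. Reads on the pseudogene that carries its symbol came to 5 in all 12 libraries against 94204 on RPS26.

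RPL38 fell at both times as well. Its protein is a small component of the large subunit known from mice to be needed for translating Hox mRNAs. Its level was 484, 535 and 452 CPM with DMSO and 374, 375 and 384 CPM with NXP800 at 6 h. At 24 h it was 684, 721 and 779 CPM and 596, 529.9 and 613 CPM. The groups did not overlap at either time, both calls held whichever library was left out, and the log2 fold changes were -0.38 (SE 0.077, adjusted p = 0.000638) and -0.33 (SE 0.077, adjusted p = 0.00162). Of its exon bases 43.2% overlap another annotated gene, with both strands considered, and how strand was used in counting is not given in the sources used here.

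RPS15, a protein of the small subunit that is needed for its export from the nucleus, and RPL41, a very short peptide of the large subunit, also fell at both times. RPS15 was at 494, 501 and 433 CPM with DMSO and 427, 396 and 371 CPM with NXP800 at 6 h, and at 947, 974 and 994 CPM and 829, 706 and 854 CPM at 24 h. RPL41 was at 534, 575 and 493 CPM and 483, 467 and 425 CPM at 6 h, and at 851, 879 and 936 CPM and 779.5, 700.0 and 782 CPM at 24 h. All NXP800 libraries were below all DMSO libraries of their time for both genes, yet the differences were small beside those of RPS26. The log2 fold changes were -0.26 and -0.29 for RPS15 (adjusted p = 0.0145 and 0.00707) and -0.22 and -0.24 for RPL41 (adjusted p = 0.0227 and 0.0137). At 6 h both calls were lost without DMSO replicate 1 (adjusted p = 0.0574 and 0.0542), DMSO replicate 2 (0.064 and 0.117) or NXP800 replicate 3 (0.074 and 0.115). At 24 h both were lost without NXP800 replicate 2 (0.0564 and 0.0909), and that of RPL41 without DMSO replicate 3 (0.062).

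Among the genes that fell at 6 h, RPS25, RPL23A and RPL35 kept the call whichever library was left out. RPS25 is a small-subunit protein used by viral internal ribosome entry sites, and RPL23A and RPL35 sit at the exit of the peptide tunnel, where the signal recognition particle docks. RPS25 was at 965, 1005 and 838 CPM with DMSO and 752, 762 and 764 CPM with NXP800 (log2 fold change -0.30 (SE 0.077, adjusted p = 0.00348)). RPL23A was at 827, 875 and 740.4 CPM and 694, 662 and 631 CPM (log2 fold change -0.30 (SE 0.075, adjusted p = 0.00316)). RPL35 was at 542, 589.6 and 505 CPM and 457, 425 and 455 CPM (log2 fold change -0.29 (SE 0.079, adjusted p = 0.00557)). The lower libraries were the NXP800 ones in each case. At 24 h their log2 fold changes were -0.04, -0.16 and -0.11 (adjusted p = 0.655, 0.0754 and 0.27), and RPL23A was called at 24 h too with the replicate block (adjusted p = 0.0116) or without NXP800 replicate 1 at 24 h (0.0312). Except for RPS15 and RPL41, the other falls at 6 h lay between -0.26 and -0.21.

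RPL10A, the protein of the stalk past which used tRNAs leave the large subunit, is the one gene that rose at both times. Its level was 648, 701 and 625 CPM with DMSO and 869, 818 and 782 CPM with NXP800 at 6 h. At 24 h it was 797, 844 and 825 CPM and 1058, 917 and 909 CPM. Each NXP800 library was above each DMSO library of its time, with log2 fold changes of 0.32 (SE 0.075, adjusted p = 0.0017) and 0.23 (SE 0.074, adjusted p = 0.0165). The 24 h call was lost without DMSO replicate 1 (adjusted p = 0.0586) or NXP800 replicate 1 (0.081). In this fit no gene was called in opposite directions at the 2 times, and 46 of the 82 were called at neither. No shares over all genes are given for calls at both times or at neither, so these counts are not set against all genes. With the replicate block RPL30 was called lower at 6 h and higher at 24 h (adjusted p = 0.0392 and 0.00099), as was RPL39L. With offsets for GC content and length added, RPL9 and RPS27A were among the genes called in that way too. Of the exon bases of RPL30 and RPS27A, 74.2% and 32.1% overlap another annotated gene, and of those of RPL39L and RPL9 none do.

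RPL22L1 rose at 6 h and was not called at 24 h. It encodes a paralog that can replace RPL22 in the large subunit and is known to rise when RPL22 is lost. It was at 35.2, 35.9 and 35.5 CPM with DMSO and 58.3, 59.1 and 51.3 CPM with NXP800 at 6 h, 1.58 times as high (log2 fold change 0.66 (SE 0.085, adjusted p = 7.65e-06)). At 24 h it was at 30.1, 33.0 and 28.2 CPM and 35.1, 35.1 and 29.0 CPM, and the groups overlapped (log2 fold change 0.12 (SE 0.087, adjusted p = 0.248)), while without NXP800 replicate 3 at 24 h it was called (0.21, adjusted p = 0.0449). The response at 24 h was lower than at 6 h by 0.54 (SE 0.12, adjusted p = 0.00401 by edgeR's quasi-likelihood test of the difference), the single such call among the 82 genes. RPL22 itself, named for its link to RPL22L1 after its values were seen, had log2 fold changes of -0.11 and 0.03 (adjusted p = 0.22 and 0.714). With the replicate block and offsets for GC content and length it was called lower at 6 h (-0.19, adjusted p = 0.000659).

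Of the other paralogs that passed the filter, none was called at either time. RPL7L1 was at -0.08 and -0.01, RPL26L1 at -0.02 and -0.01, and RPS27L, known as a p53 target, at -0.06 and -0.18 on the log2 scale. RPS27L was called lower at 24 h in the fit with the replicate block (adjusted p = 0.0192) and without NXP800 replicate 3 at 24 h (0.0159). RPL39L, a paralog best known from testis and some cancers, had values of -0.21 and 0.18 (adjusted p = 0.0523 and 0.0792), and with the replicate block it was called lower at 6 h and higher at 24 h (adjusted p = 0.0088 and 0.016). It was also called lower at 6 h without DMSO replicate 1 at 6 h, DMSO replicate 2 at 24 h or NXP800 replicate 1 at 24 h (0.0444 to 0.0489), and higher at 24 h without NXP800 replicate 2 at 24 h (0.0107).

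**Figure D5:**
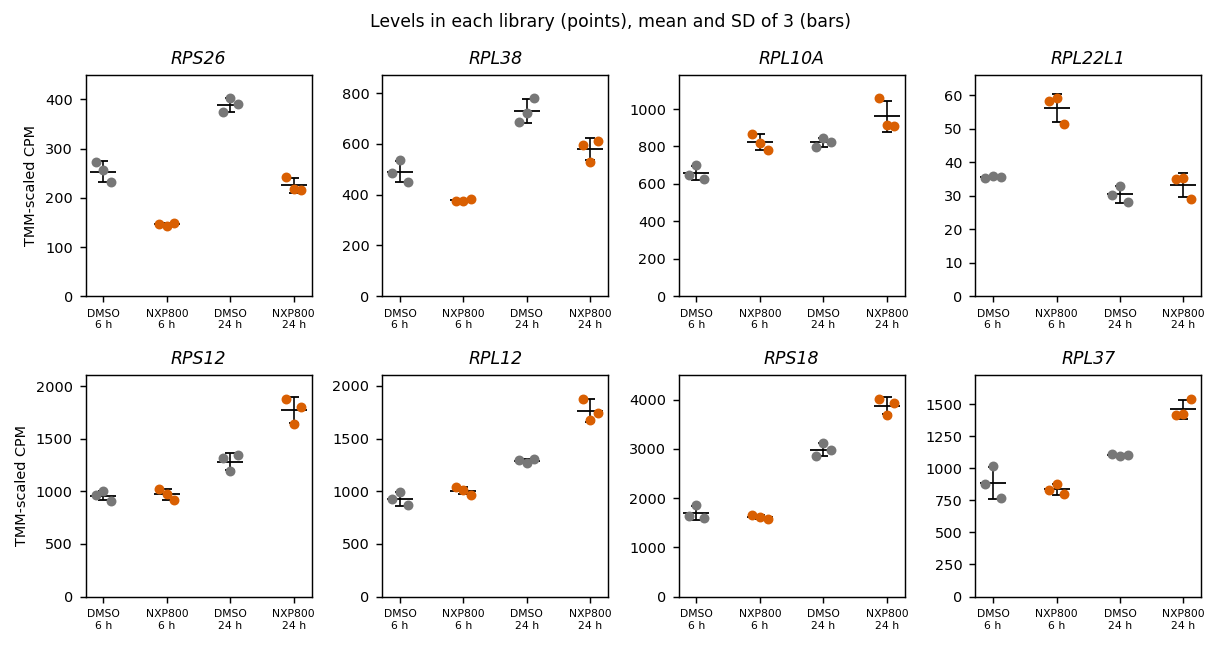
TMM-scaled CPM of 8 ribosomal protein genes in each library (points; grey DMSO, orange NXP800), with the mean and SD of 3 libraries. RPS26 and RPL38 are lower with NXP800 at both times, RPL10A is higher at both, RPL22L1 is higher at 6 h, and RPS12, RPL12, RPS18 and RPL37 are higher at 24 h.

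The genes that rose most at 24 h were RPS12, RPL12, RPL37, RPS18 and RPL26, and none of them was called at 6 h. RPS12 is a small-subunit protein at the beak that in flies takes part in sensing cells with a ribosome defect, and RPL12 anchors beside the P stalk. RPS12 was at 1313, 1197 and 1343 CPM with DMSO and 1883, 1644 and 1806 CPM with NXP800 at 24 h (log2 fold change 0.47 (SE 0.076, adjusted p = 6.52e-05)). RPL12 was at 1300.4, 1268 and 1303 CPM and 1879.8, 1673 and 1747 CPM (log2 fold change 0.45 (SE 0.071, adjusted p = 4.69e-05)). NXP800 replicate 2 was the lowest NXP800 library for both and still lay above all DMSO libraries. At 6 h RPS12 was at 968, 1005 and 911 CPM with DMSO and 1025, 977 and 915 CPM with NXP800, and RPL12 at 922, 995 and 865 CPM and 1037, 1013 and 967 CPM, and the groups overlapped for both.

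RPS18, at the head of the small subunit, was at 2858, 3117 and 2979.8 CPM with DMSO and 4022, 3688 and 3927 CPM with NXP800 at 24 h (log2 fold change 0.38 (SE 0.076, adjusted p = 0.000496)). RPL37, a zinc-binding protein of the large subunit, was at 1111, 1099 and 1104 CPM and 1412, 1419.9 and 1542 CPM (log2 fold change 0.40 (SE 0.086, adjusted p = 0.000882)). RPL26, at the tunnel exit, was at 1168, 1169 and 1369 CPM and 1824, 1338 and 1627 CPM (log2 fold change 0.37 (SE 0.098, adjusted p = 0.00439)), with 1 NXP800 library below the highest DMSO library. The calls of all 5 genes held whichever library was left out. The 15 other rises at 24 h were between 0.17 and 0.34.

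The difference between the responses, 24 h minus 6 h, was positive for 73 of the 82 genes, with a median of 0.17 beside medians near zero over all genes and of -0.12 over the other genes of high level. The median was 0.11 without NXP800 replicate 1 at 24 h and 0.10 without DMSO replicate 2 at 6 h. It was called higher for 15 genes (18.3%, against 12% of all genes) and lower for 1 (1.22%, against 13.8%). The largest were those of RPL37 (0.49 (SE 0.12, adjusted p = 0.00822)), RPS12 (0.45 (SE 0.11, adjusted p = 0.00562)) and RPS18 (0.45 (SE 0.11, adjusted p = 0.00607)). The number of higher calls was between 5 and 25 with 1 library left out, and 8 of the 12 omissions moved it by more than 1.5 times: DMSO replicate 1 (8), DMSO replicate 2 (7), NXP800 replicate 2 (25) and NXP800 replicate 3 (9) at 24 h, and DMSO replicate 1 (8), DMSO replicate 2 (6), NXP800 replicate 2 (9) and NXP800 replicate 3 (5) at 6 h. With the replicate block 31 genes were called higher (37.8%, against 18.4% of all genes in that fit) and 1 lower (1.22%, against 20.9%). Each response was taken within its own time point. The 6 h and 24 h libraries differed in their reads outside any gene, so time and library set cannot be told apart in this difference.

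The members with known roles in stress sensing were examined by the groups to which they belong. None of the 3 P stalk genes was called at either time. RPLP0, the scaffold of the stalk, was at 2815, 3044 and 2608 CPM with DMSO and 2749, 2805 and 2620.1 CPM with NXP800 at 6 h, and at 4129, 4189.9 and 4098 CPM and 4819, 3782 and 4195 CPM at 24 h, with overlapping groups. RPLP1 was at 2426, 2491 and 2414 CPM and 2804, 2389 and 2656 CPM at 24 h, and RPLP2 at 718, 707 and 741 CPM and 882, 684 and 791 CPM, in both cases with NXP800 replicate 2 below every DMSO library and the other NXP800 libraries above them. Without that library RPLP1 and RPLP2 were called higher at 24 h (log2 fold changes 0.19 and 0.24, adjusted p = 0.0439 and 0.0078), and RPLP2 also in the fit with the block and the GC and length offsets (adjusted p = 0.00721). The 3 log2 fold changes lay between -0.09 and -0.04 at 6 h and between 0.04 and 0.12 at 24 h, with standard errors of 0.079 to 0.089, beside the fall of RPS26 by 0.79.

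RPL5 and RPL11 form the 5S RNP with the 5S rRNA, which binds MDM2. RPL5 rose at 24 h, from 1439, 1439 and 1519 CPM to 1669.9, 1611 and 1696 CPM (log2 fold change 0.18 (SE 0.070, adjusted p = 0.0387)). The call was lost in 6 of 12 fits with 1 library left out, those without DMSO replicate 1 (adjusted p = 0.104), DMSO replicate 2 (0.104), NXP800 replicate 1 (0.0594) or NXP800 replicate 3 (0.105) at 24 h and those without DMSO replicate 1 (0.0545) or NXP800 replicate 1 (0.0551) at 6 h. RPL11 was at -0.12 and 0.01 on the log2 scale and was not called. Of the 7 genes listed as MDM2 regulators, RPL23 fell at 6 h, RPL5 and RPL26 rose at 24 h, and RPL11, RPS7, RPS27 and RPS27L were not called, with log2 fold changes between -0.12 and -0.06 at 6 h and between -0.18 and 0.20 at 24 h. In the fit with the block and the GC and length offsets, RPL11 and RPS7 were called lower at 6 h (adjusted p = 0.0133 and 0.00837). The call of RPL23 (-0.23 (SE 0.090, adjusted p = 0.0444)) was lost in 7 of the 12 fits, most of all without DMSO replicate 2 at 6 h (adjusted p = 0.272), and RPS27 was called higher at 24 h with the replicate block (adjusted p = 0.0185), without NXP800 replicate 2 at 24 h (0.0092) or without DMSO replicate 2 at 6 h (0.0348).

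Colliding ribosomes are ubiquitinated on RPS2, RPS3, RPS10 and RPS20. RPS2, RPS3 and RPS20 were not called at either time, with log2 fold changes between -0.13 and -0.12 at 6 h and between -0.05 and 0.09 at 24 h. With the replicate block RPS20 was called lower at 6 h (adjusted p = 0.0422). With the GC and length offsets added, RPS3 and RPS20 were called lower at 6 h (adjusted p = 0.00464 and 0.00108). RPS10 fell at 24 h, from 10.2, 11.9 and 12.4 CPM to 8.62, 8.28 and 5.62 CPM (log2 fold change -0.62 (SE 0.16, adjusted p = 0.0041)), with all NXP800 libraries below the DMSO libraries. At 6 h it was at -0.38 (adjusted p = 0.11), and at -0.60 without NXP800 replicate 3 (0.0194). The annotation holds a read-through gene, RPS10-NUDT3, that shares exons with RPS10, and how reads on shared exons were assigned is not given in the sources used here, so the value may cover a part of its reads only. RPL17 and RPL36A have such read-through records too and were also low, at 3.53 to 11.8 CPM and 0.17 to 0.46 CPM. Neither was called.

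Some ribosomal proteins fall outside the rule because of their symbols. FAU encodes a fusion of a ubiquitin-like protein with a ribosomal protein, RPL36AL is a copy of RPL36A, and RACK1 is a scaffold on the small subunit. At 6 h FAU (-0.18 (SE 0.068, adjusted p = 0.0352)) and RPL36AL (-0.33 (SE 0.063, adjusted p = 0.000305)) fell, and RACK1 was at 0.08 (adjusted p = 0.446). At 24 h RACK1 rose (0.30 (SE 0.081, adjusted p = 0.00423)), and FAU and RPL36AL were at 0.09 and -0.08 and were not called.

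The features of the genes were set beside their changes as a description. Among the 43 tested genes whose annotated start carries the pyrimidine run, changes at 6 h had a median of -0.10 and those at 24 h of 0.05 (log2), and among the 23 tested genes in the promoter table without one the medians were -0.08 and 0.05. A small nucleolar RNA lies within 28 of the 82 genes. In these, 5 fell and none rose at 6 h and 7 rose and none fell at 24 h, with medians of -0.11 and 0.09. In the 54 others, 9 fell and 2 rose at 6 h and 13 rose and 5 fell at 24 h, with medians of -0.10 and 0.04, beside 27.8% of all genes lower at 6 h and 27.5% higher at 24 h. In the 300 bases around the annotated start, on either strand, the ETS motif CCGGAAG stood in 33.3% of the 69 promoters (10.7% of all promoters), the YY1 motif AAGATGGC in 10.1% (3.03%) and the C/EBP-ATF composite motif TGATGNAA in 2.90% (3.67%), the last in RPL31 and RPS23.

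The calls were also counted after an adjustment for base composition and length, made together with the replicate block, so that the parts of GC content and length cannot be told apart (the block alone gave 24 falls at 6 h). The 82 transcripts are short, with a median of 827 bases beside 3165 over all tested genes of known length, and have a median GC content of 47.5% beside 48.7%. With offsets that level GC content and length between libraries and with the replicate block, 7 genes rose and 37 fell at 6 h (8.54% and 45.1%, against 32.3% and 32.6% of the genes in that fit), and 31 rose and 11 fell at 24 h (37.8% and 13.4%, against 34.6% and 34.1%). In that fit the falls at 6 h were 18 of the 28 genes with the lowest GC content (39.9 to 45.2%), 15 of 27 in the middle (45.5 to 51.0%) and 4 of 27 with the highest (51.5 to 63.6%). Without the block and the offsets the falls in the same sets were 2, 8 and 4. The medians over the 82 genes were -0.12 at 6 h and 0.06 at 24 h with the offsets, of the same sign as without them, whereas the 6 h median of the genes with the highest GC content went from -0.10 to 0.02.

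Other genes that work with ribosomal proteins were counted by list, beside medians over all genes of -0.05 at 6 h and near zero at 24 h and the shares called given above. Of 23 other genes with TOP mRNAs, all tested, 3 rose and 2 fell at 6 h and 4 rose and 6 fell at 24 h (medians 0.06 and -0.07). The largest rises at 6 h were those of the small nucleolar RNA hosts SNHG1 (log2 fold change 1.05 (SE 0.13, adjusted p = 5.53e-06)) and GAS5 (1.04 (SE 0.095, adjusted p = 2.01e-07)), noncoding RNAs known to be degraded when they are translated. Both were also higher at 24 h, GAS5 by 2.13 and SNHG1 by 0.61 (adjusted p = 6.64e-11 and 0.000893). CCNI, a cyclin, rose slightly at 6 h (0.17, adjusted p = 0.0386), and TOMM20, of the mitochondrial import channel, and EEF1D, of the elongation factor eEF1, fell (-0.24 and -0.20, adjusted p = 0.0376 and 0.0235). CCNI and TOMM20 were not called at 24 h (0.15 and -0.11, adjusted p = 0.0661 and 0.351).

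Of 20 regulators of TOP mRNAs and mTORC1, 5 rose and 5 fell at 6 h and 4 rose and 9 fell at 24 h (medians -0.07 and -0.12). LARP1B, a relative of the TOP-binding LARP1, rose at 6 h (1.06 (SE 0.089, adjusted p = 7.37e-08)), and so did EIF4EBP1, a repressor of cap-dependent translation (0.73 (SE 0.092, adjusted p = 6.29e-06)), and CNBP, a nucleic acid-binding protein that binds TOP mRNAs (0.30, adjusted p = 0.000945). DEPTOR, an inhibitor within the mTOR complexes, fell (-1.07 (SE 0.29, adjusted p = 0.00557)), as did EIF4EBP2 (-0.66, adjusted p = 2.64e-07) and RPS6KB2, a kinase of RPS6 (-0.24, adjusted p = 0.006). The level of DEPTOR was low, with means of 1.86 CPM with DMSO and 0.88 CPM with NXP800 at 6 h.

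Of 13 chaperones and import factors of ribosomal proteins, 1 rose and 5 fell at 6 h and 2 rose and 8 fell at 24 h (medians -0.04 and -0.28). PDCD2L, which assists small-subunit assembly, rose at 6 h (0.29, adjusted p = 0.0099) and was at -0.05 at 24 h (adjusted p = 0.681). GRWD1, the chaperone of RPL3, HEATR3, the carrier of RPL5, and BCCIP, the chaperone of RPL23, fell (-0.35, -0.24 and -0.21, adjusted p = 0.000307, 0.019 and 0.00968). TSR2, the chaperone of RPS26, named for that link after its values were seen, was at -0.04 at 6 h (adjusted p = 0.609) and fell at 24 h (-0.31, adjusted p = 0.000385).

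Of 24 genes of ribosome stalling and quality control, 10 rose and 2 fell at each time (medians 0.10 and 0.09). At 6 h GTPBP2, which rescues stalled ribosomes, rose most (2.37 (SE 0.17, adjusted p = 1.05e-08)), followed by MAP3K20, encoding the collision-sensing kinase ZAKα (0.50 (SE 0.065, adjusted p = 9.28e-06)), and ASCC3, the helicase that splits collided ribosomes (0.41 (SE 0.077, adjusted p = 0.000357)). EIF4E2, a cap-binding repressor, and USP21, a deubiquitinase, fell (-0.56 and -0.40, adjusted p = 2.75e-06 and 0.00373). MAP3K20 and EIF4E2 were not called at 24 h (-0.09 and -0.06, adjusted p = 0.248 and 0.429), while GTPBP2, ASCC3 and USP21 were called in the same direction (2.06, 0.34 and -0.59). Of 14 factors that meet the nascent chain, 1 rose and 4 fell at 6 h and 2 rose and 5 fell at 24 h (medians -0.05 and -0.11). SRP19, of the signal recognition particle, rose at 6 h (0.26, adjusted p = 0.00458), and HSPA14, the ribosome-bound HSP70, METAP1, which removes the first methionine, and SRP14 fell (-0.52, -0.35 and -0.22, adjusted p = 8.97e-06, 0.000107 and 0.00846).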

How the data were processed

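PolyA RNA of 12 HOS-MNNG libraries was sequenced by the authors (strand-specific DNBSEQ kit, paired reads of 100 bases). Per the submitters' processing notes, fastp 0.20.1, STAR 2.7.5a and HTSeq 0.12.4 were used, and per the methods reads were aligned to hg38 with RefSeq annotation. The deposited values are counts of reads per gene symbol, not normalised, at 30810614 to 31947656 per library. Rows that name no gene (no feature, ambiguous, not unique) were left out. They came to 2.73 to 8.14%, 2.10 to 2.43% and 1.86 to 3.37% of gene counts plus all reads assigned to no gene. The reads that were not unique made up 1.86 to 1.99% at 6 h. At 24 h they made up 2.96 to 3.09% with DMSO and 3.25 to 3.37% with NXP800. Their part in the results was not tested.

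The tests used edgeR 4.0.16 (R 4.3.3) with filterByExpr, TMM factors and the quasi-likelihood test in one model of 4 groups, with Benjamini-Hochberg adjustment over 15979 genes. NXP800 was compared with DMSO at 6 h and at 24 h, and the difference of these was tested. The method was tested on simulated data. In these, each gene was drawn independently, with no movement shared by the ribosomal protein genes between replicates and no pairing by replicate number. The simulation therefore does not cover these features of the data. The ribosomal protein genes and the gene lists were chosen with earlier results of these data known. Named genes are the fixed role groups, the 5 largest called changes each way at each time and the 3 largest differences each way (mean log2 CPM of at least 1), ribosomal proteins outside the symbol rule, and in each other list the 3 largest called changes each way at 6 h. The result for 1 gene is not reported here.

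Within a time point, libraries with the same replicate number in the labels deviated together over all tested genes (r from 0.159 to 0.329, against at most 0.0580 for different numbers). The replicate block was therefore fitted as an alternative. The main test and the permutation test did not use the numbers, so their p-values leave this pairing out. The labels give the numbers and no further reason to pair the libraries. Replicates differed beyond sampling noise (chi-square per degree of freedom 7.36 to 26.3), so none was counted as a repeat. Exon overlap, length and GC content came from GENCODE (GRCh38), known for 91.6% of tested genes, and start sites from RefSeq. Alternatives were other scalings, filters and tests (DESeq2 1.42.0), the replicate block with and without offsets for GC and length, counts with 32 pseudogenes added to 20 genes, and each library left out.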

Additional observations from a re-analysis of the deposited data

Results flagged for a closer look

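For 7 of the named ribosomal protein genes the response to NXP800 differed between the times by a test of the difference itself (edgeR's quasi-likelihood test, Benjamini-Hochberg over all genes). On the log2 scale, 24 h minus 6 h, RPL37 (0.49, from -0.08 to 0.40), RPS12 (0.45) and RPS18 (0.45) were higher at 24 h, as were RPL26 (0.41, adjusted p = 0.0398), RPL39L (0.38, adjusted p = 0.0262) and RPL12 (0.34, adjusted p = 0.0217), and RPL22L1 was lower (-0.54, from 0.66 to 0.12). RPL37, RPS12, RPS18 and RPL22L1 were called whichever library was left out. In the fit with the replicate block the difference was called for RPS25, RPS27, RPS3 and RPS20 too (adjusted p = 0.0243, 0.0319, 0.0419 and 0.0437), and without NXP800 replicate 2 at 24 h for RPLP2, RPS25 and RPS27 (0.0251, 0.0269 and 0.0355), RPS25 also without DMSO replicate 3 at 6 h (0.0309).

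The call of RPL26 was lost in 9 of the 12 omissions (adjusted p between 0.0639 and 0.0953), all but those of DMSO replicate 3 and NXP800 replicate 2 at 24 h and of DMSO replicate 3 at 6 h. That of RPL39L was lost in 6, without DMSO replicate 2 (0.0715) or NXP800 replicate 1 (0.0652) at 24 h and without DMSO replicate 2 (0.0691) or any NXP800 library (0.0509 to 0.0533) at 6 h. That of RPL12 was lost without DMSO replicate 2 (0.064) or NXP800 replicate 3 (0.0556) at 6 h. The reads outside any gene, on the base given above, were 6.66 to 8.14% at 6 h and 2.73 to 3.67% at 24 h, in both treatments. The part of that difference in these results was not tested.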

How the results depend on the processing

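None of the called changes of the named ribosomal protein genes reversed its direction in another setting. Some values that were not called did so at 6 h with the block and the GC and length offsets. RPLP0 went from -0.05 to 0.02, and RPS19 from -0.07 to 0.08. With only the 6 libraries of the time point, 4 genes rose at 6 h. At an adjusted p below 0.01, 5 fell at 6 h, 10 rose at 24 h and 4 differences were higher. No shares over all genes are given for that threshold or for the 6 libraries alone, so these counts are not set against all genes. With library size alone as the scaling, 37 rose and 4 fell at 24 h (against 33.3% and 23.4% of all genes). In that fit 34 differences were higher (41.5%, against 15.4% of all genes). That scaling moved the median of all genes at 24 h by 0.09. With the replicate block, 24 fell at 6 h, 8 fell at 24 h and 31 differences were higher (against 33.4%, 33.1% and 18.4% of all genes). With GC and length offsets added to the block, 7 rose and 37 fell at 6 h (against 32.3% and 32.6% of the genes in that fit). There, 31 rose and 11 fell at 24 h (against 34.6% and 34.1%), and 41 differences were higher (50.0%, against 20.1%). The difference of the summed share at 24 h was 0.652 after TMM scaling. The causes of these shifts were not tested.

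With 1 library left out, 2 to 3 genes rose and 6 to 18 fell at 6 h, 12 to 31 rose and 3 to 9 fell at 24 h, and 5 to 25 differences were higher. No shares over all genes are given for the fits with 1 library left out. The median at 6 h lay between -0.14 and -0.0507, the latter without DMSO replicate 2. Of 348 such fits of a called change in a named gene, 41 lost the call. DESeq2's Wald test and, in edgeR, its size factors lost that of RPL23 at 6 h (adjusted p = 0.0599 and 0.0658), and library size alone that of RPL41 at 24 h (0.0556). The other filters, the scaling factors computed without these genes and the added pseudogene counts lost none. At these depths the limit is the spread between libraries: with a median standard error of 0.080, the smallest called change of NXP800 against DMSO among the 82 genes was 0.17 on the log2 scale.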
